A study of Mus musculus with 45 samples.

Results

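Islets of Langerhans from CAST/EiJ mice were set against islets from C57BL/6J mice, all on the control diet with 10% fat and added fiber. The libraries were taken by the strain and diet in their titles: 7 CAST/EiJ libraries (4 from females, 3 from males) and 8 C57BL/6J libraries (4 from females, 4 from males), 15 of the 45 in the series. All mice were wild type and received no treatment beyond the diet, which began at 6 weeks of age, and islets were collected at 16 weeks. The other libraries came from the same strains on a diet of high fat and high sugar (44% fat) and from NZO/HlLtJ mice, an obese strain prone to diabetes. Each strain is a single inbred line, so strain here means 1 genotype, and the labels do not say whether each library came from a separate mouse. The p-values therefore measure the spread between these libraries.

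Islets are clusters of endocrine cells within the exocrine pancreas: beta cells secrete insulin, alpha cells glucagon, delta cells somatostatin, and rarer cells pancreatic polypeptide or ghrelin. Glucose taken up by a beta cell is metabolised, the rise in ATP closes potassium channels, calcium enters, and insulin granules fuse with the membrane, a response tuned by receptors for gut hormones and neurotransmitters. CAST/EiJ descends from wild mice of the subspecies Mus musculus castaneus and differs from the C57BL/6J reference genome at very many sites, whereas C57BL/6J is the laboratory strain that genome was built from. The sources used here do not say whether the counting allowed for these variants. A higher or lower count of a gene in CAST/EiJ is reported below as a count. For some families of near-identical copies the sum is given too. Other named genes may have similar copies that were not summed.

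The libraries held 57.2 to 102 M estimated counts over 22904 genes. Insulin transcripts, Ins1 and Ins2 together, took 4.10 to 15.1% of the counts in CAST/EiJ libraries and 4.97 to 11.4% in C57BL/6J libraries, which places both groups among islet samples. Xist was high in all female libraries and Ddx3y in all male libraries, which matches their labels. Nnt, which encodes the mitochondrial proton-pumping transhydrogenase and is partly deleted in C57BL/6J, ran from 72.0 to 111 CPM (counts scaled to library size) in CAST/EiJ and from 26.2 to 35.6 CPM in C57BL/6J. Transcripts of exocrine acinar cells varied widely, from 0.0759 to 44.5% of counts in CAST/EiJ and from 2.13 to 26.7% in C57BL/6J; the highest library of each strain was female replicate 4. CAST/EiJ male replicate 3 stood apart in immune transcripts, with a macrophage marker sum of 475 CPM against 115 to 176 CPM in the other 14 libraries and a lymphocyte and plasma cell sum of 233 CPM against 9.05 to 42.0 CPM. Where a list's count moved by over 1.5 times and by more than 1 gene without one of these libraries, the count without it is given beside it.

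Close to 1 gene in 2 differed between the strains, about as many higher as lower in CAST/EiJ. Of 18906 genes tested, 4223 were higher in CAST/EiJ (22.3%) and 4606 were lower (24.4%), so that 8829 (46.7%) passed an adjusted p of 0.05 in edgeR's quasi-likelihood test with sex as a blocking factor. The difference was at least 2-fold for 1427 genes higher in CAST/EiJ and 1850 lower, and at least 16-fold for 217 higher and 270 lower. For 3931 genes (20.8%) the CPM ranges of the strains did not overlap. The median log2 fold change over all genes, CAST/EiJ over C57BL/6J here and below, was -0.01. Counts within a gene list are read against these background shares, and a share near 46.7% is no result about the list. Scaling by library totals alone, without composition factors, left 2308 genes higher and 2947 lower, and its counts are given beside a list where they differ as much.

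**Figure D1:**
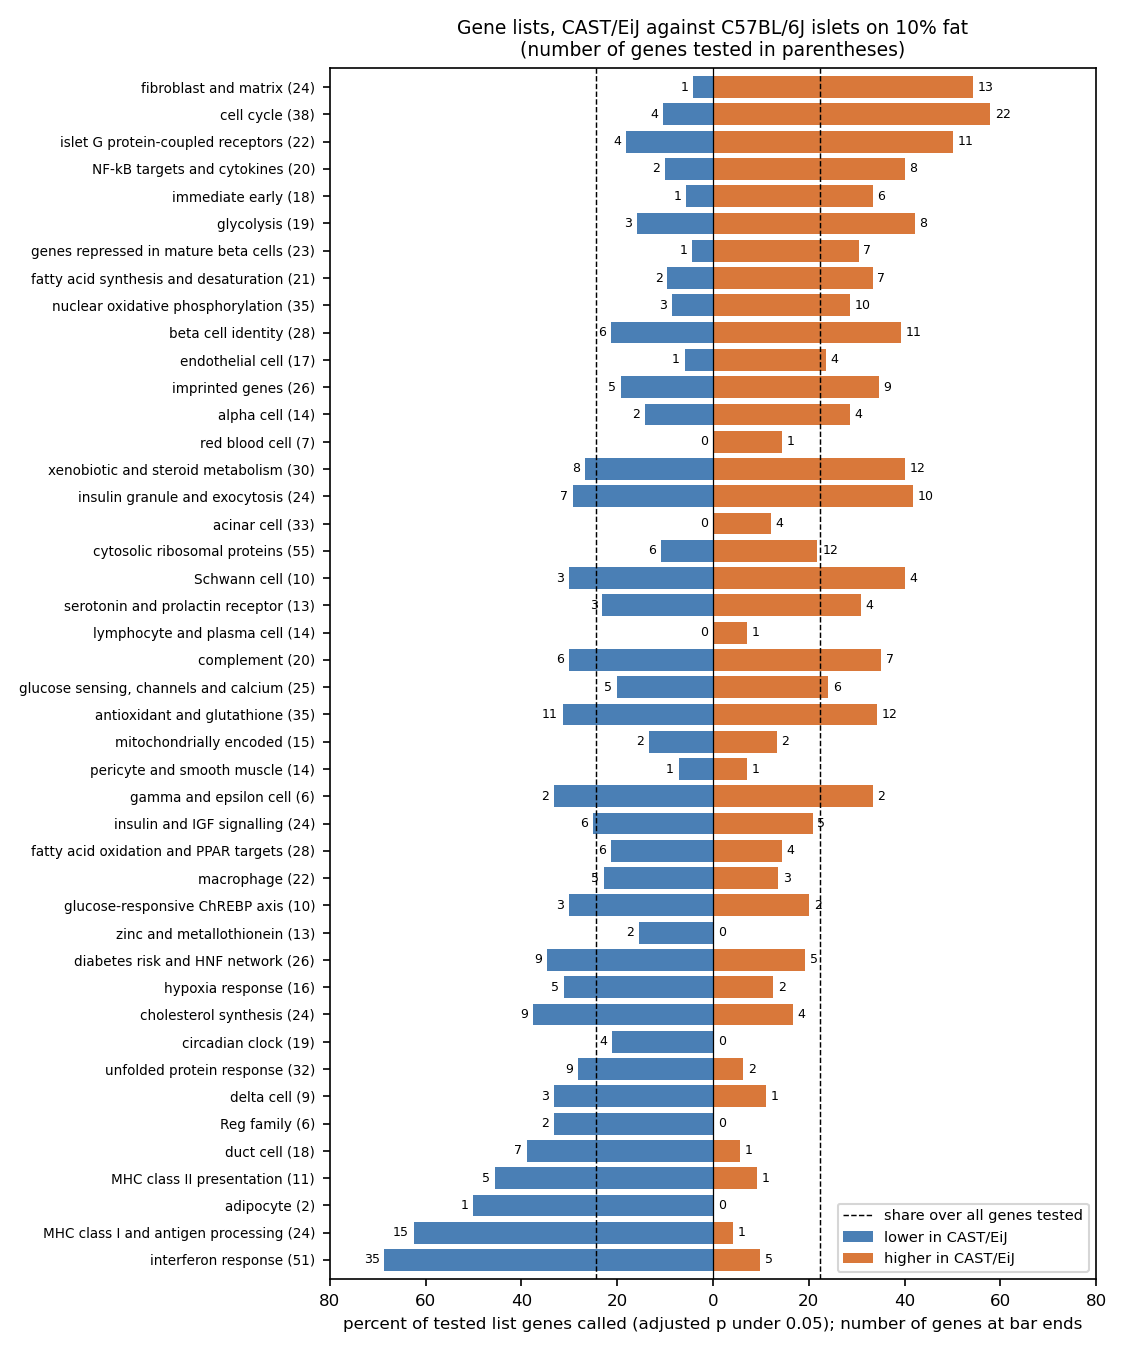
Percentage of the tested genes of each list that were higher (right) or lower (left) in CAST/EiJ than in C57BL/6J islets on 10% fat, with the counts at the bar ends. Dashed lines mark the shares over all 18906 genes, 22.3% higher and 24.4% lower; the interferon response and MHC class I lists reach farthest to the left, and the cell cycle and fibroblast lists farthest to the right.

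Outside the families of near-identical copies described further on, the largest differences included receptors, channels, secreted peptides and enzymes. Tas1r1, a subunit of the umami taste receptor that senses amino acids (chr4:152027914-152038568, GRCm38), had 24.4, 75.7 and 110 CPM as the lowest, median and highest value of the 7 CAST/EiJ libraries, against 0.420, 0.591 and 1.10 CPM in the 8 C57BL/6J libraries. Its log2 fold change was 6.74 ± 0.36 (SE, adjusted p = 2.34e-09). Kcnj5, an inwardly rectifying potassium channel gated by G proteins (chr9:32314783-32344237), had 14.0, 22.98 and 38.3 CPM in CAST/EiJ and 0.103, 0.231 and 0.538 CPM in C57BL/6J (log2 fold change 6.62 ± 0.34, adjusted p = 7.25e-10). Nmbr, the receptor for the peptide neuromedin B (chr10:14705591-14770850), had 5.603, 12.7 and 18.3 CPM in CAST/EiJ against 0.0590, 0.133 and 0.187 CPM in C57BL/6J. For these 3 genes the lowest CAST/EiJ library lay above the highest C57BL/6J library by more than 10-fold. Magel2, an imprinted gene of the Prader-Willi region, had a median of 9.07 CPM in CAST/EiJ and 0.133 CPM in C57BL/6J. Tspan10, a tetraspanin, had 6.01 CPM against 0.0166 CPM, and Ccdc190, a coiled-coil protein, had 7.60 against 0.0515 CPM, again as medians of CAST/EiJ and C57BL/6J.

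Several more abundant genes, picked after their values were seen because they exceeded 40 CPM and differed at least 16-fold, or differed by at least 150 CPM, followed the same pattern. Car15, a membrane-anchored carbonic anhydrase (chr16:17835276-17838364), had 347, 648 and 825 CPM in CAST/EiJ against 11.4, 14.2 and 24.2 CPM in C57BL/6J (log2 fold change 5.27 ± 0.21, adjusted p = 4.75e-12). Npy, the neuropeptide Y precursor (chr6:49822710-49829507), had 107, 213 and 331 CPM in CAST/EiJ against 5.58, 7.90 and 12.6 CPM in C57BL/6J (log2 fold change 4.60 ± 0.25, adjusted p = 1.46e-09). The groups were far apart for both genes. Th, tyrosine hydroxylase, the first enzyme of catecholamine synthesis, averaged 242 ± 37.8 CPM in CAST/EiJ and 31.3 ± 4.63 CPM in C57BL/6J (SD, n = 7 and 8). Fam84a averaged 303 ± 108 and 6.76 ± 1.67 CPM, Tagln3 81.03 ± 13.3 and 2.01 ± 0.516 CPM, and the secreted Angptl7 156 ± 38.0 and 4.81 ± 1.44 CPM, in CAST/EiJ and C57BL/6J. Serpina3n, a secreted protease inhibitor of the acute phase, averaged 45.6 ± 12.6 CPM in CAST/EiJ against 1.14 ± 0.415 CPM. The small heat shock protein Hspb8 averaged 219 ± 71.1 CPM in CAST/EiJ against 15.7 ± 3.54 CPM. Myo5a, the motor that carries granules along actin, averaged 449 ± 92.5 CPM against 121 ± 13.8 CPM.

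In the other direction, C8b, a component of the complement membrane attack complex (chr4:104766317-104804548), had the smallest adjusted p among the genes eligible for naming, 5.16e-16. It had 1.08, 1.43 and 1.66 CPM in CAST/EiJ against 51.2, 58.0 and 64.5 CPM in C57BL/6J, a log2 fold change of -5.44 ± 0.11. Olfm4, a secreted glycoprotein of gut crypts, had at most 0.0911 CPM in CAST/EiJ and 10.5, 14.1 and 19.4 CPM in C57BL/6J. Fam213b was listed at 0 in all 7 CAST/EiJ libraries and had 6.30 to 9.19 CPM in C57BL/6J, which is at least 207-fold lower against a floor of 3 counts per library. Lefty1, a secreted inhibitor of Nodal signalling, had a median of 0.0407 CPM in CAST/EiJ and 5.83 CPM in C57BL/6J. Crb1, a polarity protein, had 0.0437 against 12.04 CPM, the meiotic cohesin Rec8 0.149 against 19.8 CPM, and the folate receptor Folr1 0.176 against 22.7 CPM, each as the CAST/EiJ and C57BL/6J medians. Pon2, an intracellular lactonase, had 1.01, 1.24 and 1.59 CPM in CAST/EiJ against 22.6, 23.8 and 29.8 CPM in C57BL/6J. Prom1 (prominin 1, a membrane protein of protrusions), Foxred2 and Zfp92 fell by 3.32, 2.65 and 2.70 on the log2 scale. Ranges without overlap were a condition for naming them. The alcohol dehydrogenase Adh1, which oxidises retinol and ethanol, had 1.22, 1.81 and 2.76 CPM in CAST/EiJ against 60.05, 72.8 and 93.2 CPM in C57BL/6J. The potassium channel partner Kcnip1 averaged 2.88 ± 1.67 CPM in CAST/EiJ and 50.1 ± 6.17 CPM in C57BL/6J; like Adh1 it was picked after its values were seen.

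**Figure D2:**
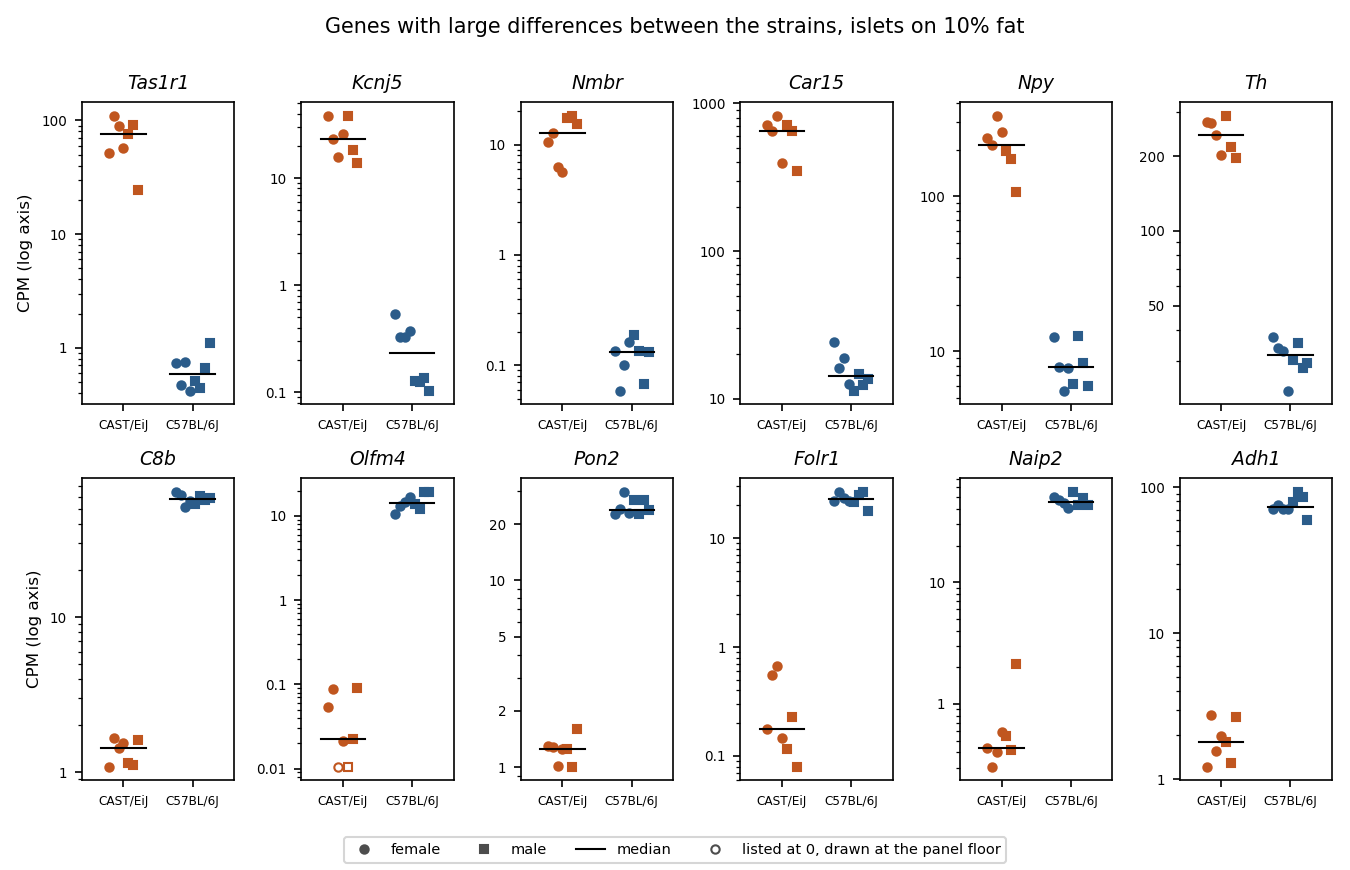
CPM of 12 genes in each library on a log axis, CAST/EiJ left and C57BL/6J right, with circles for females, squares for males and a bar at the strain median. In the upper row the CAST/EiJ libraries lie above all C57BL/6J libraries, and in the lower row below them. The genes were chosen for large differences, most of them under a rule that required ranges without overlap.

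The 7 NZO/HlLtJ libraries on the same diet place some of these differences, as levels without a test. NZO/HlLtJ was close to the C57BL/6J level for Tas1r1 (median 0.719 CPM), Car15 (13.2 CPM), Fam84a (6.76 CPM) and Tagln3 (1.53 CPM), and lower than either for Npy (1.85 CPM). NZO/HlLtJ also had Adh1 at 150 CPM, Naip2 at 46.5 CPM, Pon2 at 26.7 CPM and Crb1 at 9.74 CPM, so that the low values were those of CAST/EiJ. By contrast, NZO/HlLtJ was low where CAST/EiJ was low for Folr1 (0.503 CPM) and Lefty1 (0.0111 CPM), and lay between the strains for C8b (22.7 CPM), Angptl7 (98.8 CPM) and Tagap (9.09 CPM). Tagap had 16.8 CPM in CAST/EiJ and 0.961 CPM in C57BL/6J.

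Beta cell genes moved in both directions. Of 28 genes of beta cell identity, 11 were higher and 6 lower in CAST/EiJ, with a median log2 fold change of 0.12 (6 higher and 3 lower with library totals alone). Ins1 had 32596, 47699 and 54028 CPM in CAST/EiJ against 23736, 31351 and 35054 CPM in C57BL/6J, and rose by 0.52 ± 0.12 on the log2 scale (adjusted p = 0.00179). The ranges overlapped for Ins1, and Ins2 did not pass the test (log2 fold change 0.19 ± 0.12, adjusted p = 0.23), nor did Iapp, the amyloid peptide secreted with insulin (-0.20 ± 0.12, adjusted p = 0.163). The transcription factors of mature beta cells Mafa and Pdx1 rose by 0.87 ± 0.18 and 0.60 ± 0.14. Mafa had 66.7, 107 and 134 CPM in CAST/EiJ and 40.3, 52.2 and 79.9 CPM in C57BL/6J. Slc2a2, the main glucose transporter of mouse beta cells, rose by 0.50 ± 0.14. Ucn3, a peptide of mature beta cells, passed narrowly (0.29 ± 0.11, adjusted p = 0.0381, and 0.00715 to 0.0728 as each library was left out). Scaled by library totals alone, Ins1, Slc2a2 and Ucn3 kept their direction and were not called (adjusted p = 0.111, 0.103 and 0.351). Esr1, the estrogen receptor, and Trpm5, a calcium-activated cation channel that also serves taste cells, were the members with the largest rise, with Esr1 at 3.06 ± 0.242 CPM in CAST/EiJ against 0.723 ± 0.244 CPM in C57BL/6J and Trpm5 at 268 ± 47.9 against 132 ± 28.0 CPM. Glp1r, the receptor of the incretin GLP-1, was the member that fell most: 76.7, 89.2 and 122 CPM in CAST/EiJ against 131, 178 and 221 CPM in C57BL/6J, a log2 fold change of -0.91 ± 0.12 (adjusted p = 5.45e-06) without overlap. Pcsk1, the proinsulin convertase, fell by 0.54 ± 0.11.

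Among 24 genes of the insulin granule and exocytosis, 10 were higher and 7 lower, 70.8% against the background of 46.7%, and 9 had no overlap between strains. Scaling by library totals alone left 6 higher and 4 lower of the 24, where 2308 and 2947 of all genes were called. The granins split. Scg2 (secretogranin II) had 12492, 19595 and 24397 CPM in CAST/EiJ against 4684, 6868 and 8510 CPM in C57BL/6J, a rise of 1.43 ± 0.14. Vgf rose by 1.75 ± 0.15 and Scg5, the chaperone of the convertase PC2, by 1.08 ± 0.08. Chga (chromogranin A) had 3754, 5650 and 6091 CPM in CAST/EiJ against 8408, 11524 and 13233 CPM in C57BL/6J, a fall of 1.15 ± 0.13, and Chgb fell by 0.80 ± 0.13. Syt13, a synaptotagmin of the exocytosis machinery, fell by 0.96 ± 0.13. None of these 6 genes overlapped between the strains.

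**Figure D3:**
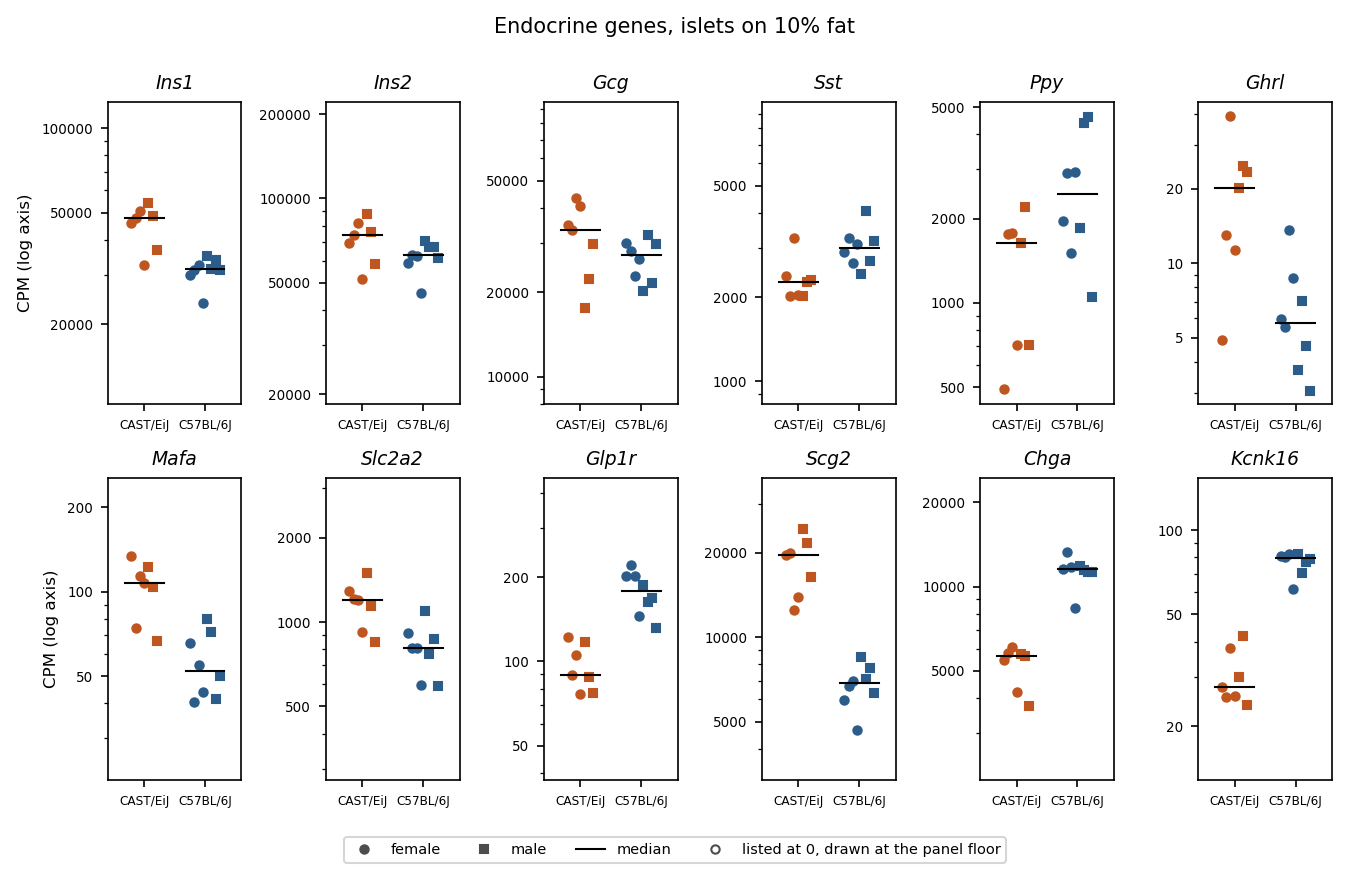
CPM of 12 endocrine genes in each library on a log axis, CAST/EiJ left and C57BL/6J right, with circles for females, squares for males and a bar at the strain median. Scg2 was higher and Chga and Glp1r were lower in every CAST/EiJ library than in any C57BL/6J library, while the ranges of the hormones overlapped.

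In glucose sensing, channels and calcium, 6 of 25 genes were higher and 5 lower (4 and 3 with library totals alone). Trpm2, a cation channel opened by ADP-ribose and heat, rose by 1.27 ± 0.09, and Cacna1a, the pore of P/Q-type calcium channels, by 0.73 ± 0.09. Kcnk16, the TALK-1 potassium channel of beta cells, had 23.9, 27.6 and 42.0 CPM in CAST/EiJ and 61.6, 79.2 and 82.3 CPM in C57BL/6J, and fell by 1.36 ± 0.12. Gpd2, of the glycerol phosphate shuttle, and Itpr3, an inositol trisphosphate receptor that releases stored calcium, fell by 1.04 ± 0.10 and 1.03 ± 0.08. All 5 of these genes had ranges that did not overlap.

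Receptors coupled to G proteins were called in 15 of 22 cases (68.2%, against 46.7% of all genes). In CAST/EiJ 11 were higher and 4 lower, with a median log2 fold change of 0.38. P2ry1, a receptor for extracellular ADP and ATP, had 160, 261 and 450 CPM in CAST/EiJ against 43.3, 67.7 and 117 CPM in C57BL/6J, a rise of 1.94 ± 0.27 (adjusted p = 4.15e-05). Adora1, the inhibitory adenosine A1 receptor, rose by 1.30 ± 0.11. Besides Glp1r, Galr1, the receptor of the inhibitory peptide galanin, had 6.55, 9.26 and 11.7 CPM in CAST/EiJ against 25.4, 32.03 and 43.2 CPM in C57BL/6J, a fall of 1.87 ± 0.12. Ghsr, the ghrelin receptor, fell by 1.37 ± 0.17. P2ry1, Adora1, Galr1 and Ghsr did not overlap between the strains.

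Of 23 disallowed genes, which mature beta cells keep low, 7 were higher and 1 was lower. The chemokine Cxcl12 rose by 1.44 ± 0.20, the monocarboxylate transporter Slc16a1 by 0.95 ± 0.26 and the focal adhesion protein Zyx by 0.89 ± 0.11. The member that fell was Aldoa, by 0.19 ± 0.07, a call that 12 of the 15 fits without a library did not make. Some of these genes also belong to stromal cells, and without CAST/EiJ male replicate 3 the count was 5 higher and 3 lower. In bulk islets, fewer cells of a type and less RNA per cell cannot be told apart.

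The hormones of the other endocrine cells differed little or overlapped. Gcg, glucagon, had 17540, 33360 and 43336 CPM in CAST/EiJ and 20133, 27114 and 32026 CPM in C57BL/6J, and did not pass the test (adjusted p = 0.394). Of 14 alpha cell genes, 4 were higher and 2 lower, against 2 and 0 with library totals alone, and 2 were higher without CAST/EiJ female replicate 3 or without both female replicates 4; Pou3f4, a transcription factor of alpha cells, rose by 1.69 ± 0.25 with no overlap, and Gc and Etv1 fell by 0.45 ± 0.13 and 0.43 ± 0.10. Sst, somatostatin, fell by 0.41 ± 0.13 (adjusted p = 0.0173, and 0.0535 without CAST/EiJ male replicate 1), and Hhex, the transcription factor that maintains delta cells, by 0.75 ± 0.10. Of 9 delta cell genes tested, 3 were lower and 1, Lepr, higher. Ppy, pancreatic polypeptide, had 493, 1631 and 2197 CPM in CAST/EiJ against 1052, 2438 and 4601 CPM in C57BL/6J with a log2 fold change of -1.01 ± 0.38 (adjusted p = 0.0435, and 0.0177 to 0.0917 as each library was left out). Ghrl, ghrelin, had 4.88, 20.1 and 39.5 CPM against 3.06, 5.74 and 13.7 CPM and rose by 1.597 ± 0.42 (adjusted p = 0.00711). Pyy, peptide YY, was not called (adjusted p = 0.0663, and 0.0109 without CAST/EiJ female replicate 3). The gamma and epsilon cell list counted 2 higher and 2 lower of 6 (2 and 0 with library totals alone).

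Genes of the interferon response were lower in CAST/EiJ: 35 of 51 fell and 5 rose, against 24.4% and 22.3% of all genes. The list's median log2 fold change was -0.92, against -0.01 over all genes, and 28 members had no overlap between strains, 54.9% against 20.8%. Interferons bind receptors that signal through STAT proteins to genes that restrict viruses and intracellular bacteria. Iigp1 and Tgtp2 belong to the immunity-related GTPases, which attack the vacuoles of intracellular pathogens. Iigp1 was listed at 0 in most CAST/EiJ libraries, with a highest value of 0.0271 CPM, and had 2.17, 3.60 and 7.08 CPM in C57BL/6J. Tgtp2 was listed at 0 in all 7 CAST/EiJ libraries and had 2.67, 4.15 and 6.69 CPM in C57BL/6J, at least 113-fold lower against the floor of 3 counts per library; its near-identical partner Tgtp1 was kept in the sum of both, 1.96 ± 0.634 CPM in CAST/EiJ against 7.32 ± 2.22 CPM in C57BL/6J. Setting Tgtp2 at its bound left the median of the list at -0.92. Ifi44 had 0.0425, 0.142 and 0.190 CPM in CAST/EiJ against 1.64, 2.44 and 5.20 CPM in C57BL/6J. The members that rose included Usp18, the protease that removes ISG15 and damps interferon signalling. It had 31.8, 37.5 and 53.5 CPM in CAST/EiJ against 9.01, 13.3 and 17.0 CPM in C57BL/6J (log2 fold change 1.54 ± 0.13). Mx2, an antiviral GTPase, rose by 1.81 ± 0.19 and Xaf1 by 0.78 ± 0.16, both without overlap.

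The promoters of the list were read for the core of the interferon-stimulated response element, GAAANNGAAA, on both strands from 250 bases before to 50 bases after the gene start. Of 35 list members with a promoter sequence, 24 held it (68.6%), against 461 of 12457 tested genes with one (3.7%). It was found in 19 of the 28 members that fell (67.9%) and in 5 of the 6 that were not called (83.3%), and the 1 member with a promoter among those that rose did not hold it. The presence of these letters thus did not separate the members that fell from those that were not called. Shown are the 120 bases before the gene start of 5 members that fell and hold the motif in that stretch. Not all members that fell were considered for printing, and Iigp1 was left out. These 5 therefore need not be the members with the largest fall. The sequences are from the C57BL/6J reference (RefSeq, GRCm38.p6), 5′ to 3′ on the strand of the gene. The motif is in capitals (TTTCNNTTTC where it lies on the other strand). The CAST/EiJ sequence of these promoters was not used here. The RefSeq gene start coincided with a GENCODE transcript start for Rsad2, Irgm1 and Trim30a but not for Tgtp2 and Oas1a, and for 7523 of the 15888 promoter sequences searched.
Tgtp2: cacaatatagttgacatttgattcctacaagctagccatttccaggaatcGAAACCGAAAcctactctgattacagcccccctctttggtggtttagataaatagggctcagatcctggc
Oas1a: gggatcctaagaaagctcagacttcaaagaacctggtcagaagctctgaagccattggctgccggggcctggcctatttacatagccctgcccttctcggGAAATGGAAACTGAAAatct
Rsad2: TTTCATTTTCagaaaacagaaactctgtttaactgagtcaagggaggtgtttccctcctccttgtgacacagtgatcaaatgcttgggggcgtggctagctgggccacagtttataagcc
Irgm1: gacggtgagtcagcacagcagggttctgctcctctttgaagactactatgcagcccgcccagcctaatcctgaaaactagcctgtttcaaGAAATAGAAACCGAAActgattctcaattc
Trim30a: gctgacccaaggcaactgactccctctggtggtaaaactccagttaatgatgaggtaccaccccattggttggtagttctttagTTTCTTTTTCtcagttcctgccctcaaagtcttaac
These are Tgtp2 at chr11:49064213-49064332, Oas1a at chr5:120907526-120907645, Rsad2 at chr12:26456453-26456572, Irgm1 at chr11:48871421-48871540 and Trim30a at chr7:104465194-104465313, all on the minus strand. Oas1a makes the second messenger that activates RNase L, Rsad2 (viperin) makes an antiviral nucleotide, Irgm1 regulates the immunity-related GTPases and Trim30a is a tripartite motif protein. Oas1a had 0.298, 0.351 and 0.407 CPM in CAST/EiJ against 1.85, 2.58 and 3.40 CPM in C57BL/6J. Rsad2 had 1.83, 3.69 and 5.40 CPM in CAST/EiJ against 8.71, 13.02 and 15.1 CPM in C57BL/6J, and Irgm1 had 4.95, 6.06 and 6.53 CPM against 14.97, 16.4 and 19.7 CPM. The groups did not overlap for these 3 genes, while Trim30a, with 0.868, 1.12 and 2.61 CPM in CAST/EiJ against 2.25, 3.36 and 5.12 CPM in C57BL/6J, overlapped at its highest CAST/EiJ library.

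Class I of the major histocompatibility complex, which presents peptides from inside the cell to CD8+ T cells, was lower too. Of 24 genes of MHC class I and antigen processing, 15 fell (62.5%, against 24.4% of all genes) and 1 rose. Their median log2 fold change was -0.72, and 13 had no overlap (54.2%, against 20.8% of all genes). H2-K1 had 66.2, 73.2 and 76.2 CPM in CAST/EiJ against 270, 303 and 336 CPM in C57BL/6J, a log2 fold change of -2.10 ± 0.07 (adjusted p = 6.32e-14). H2-D1 had 29.1, 34.7 and 43.4 CPM in CAST/EiJ against 220, 243 and 278 CPM in C57BL/6J, and the nonclassical H2-T22 had 3.86, 4.55 and 5.79 CPM against 30.4, 33.7 and 38.2 CPM. The member that rose was the class I-like H2-Bl, at 0.1896, 0.308 and 0.501 CPM in CAST/EiJ and at most 0.0282 CPM in C57BL/6J. These genes are highly polymorphic and similar to each other, so reads of the CAST/EiJ alleles may have been counted elsewhere or not at all, which was not tested. The sum over 6 classical and Q-region genes was 128 ± 12.9 CPM in CAST/EiJ and 577 ± 37.6 CPM in C57BL/6J, so none of these 6 made up for the difference. NZO/HlLtJ had 52.1 CPM of H2-K1 and 144 CPM of H2-D1 as medians.

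**Figure D4:**
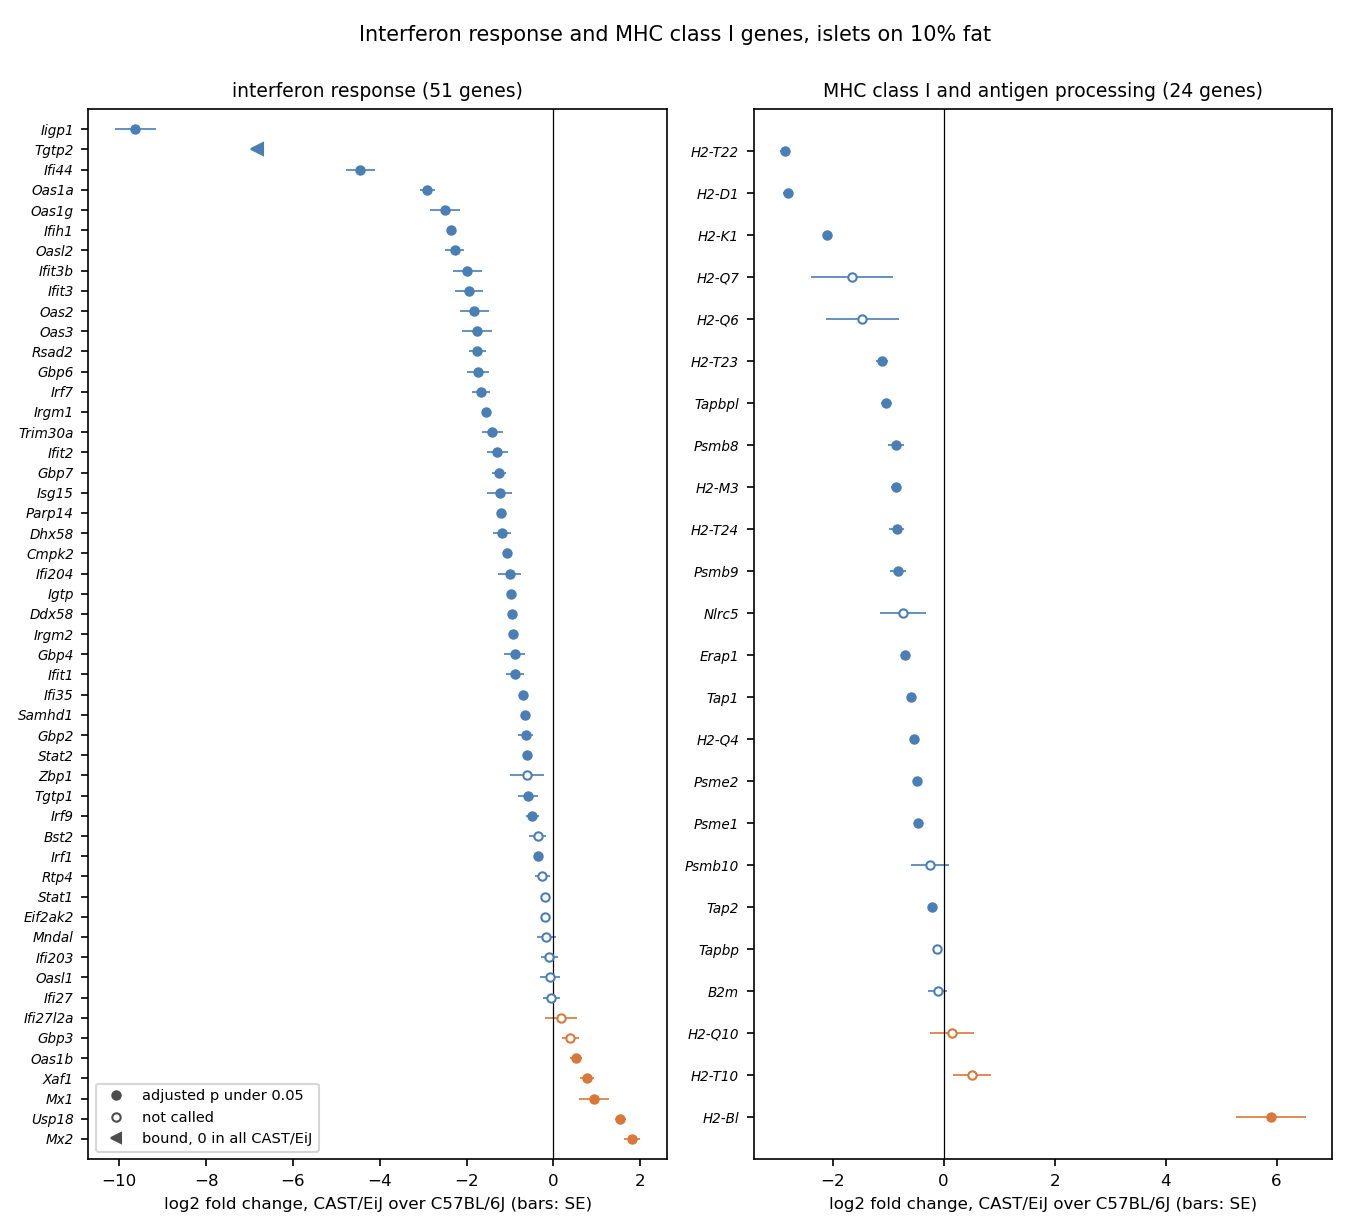
Log2 fold change of CAST/EiJ over C57BL/6J with its standard error for the tested members of the interferon response list (left panel) and of the MHC class I and antigen processing list (right panel), sorted by value. Filled points passed an adjusted p of 0.05, and most of them lie left of 0; Tgtp2, at 0 in all CAST/EiJ libraries, is drawn as a triangle at its bound.

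Class II presentation, the work of macrophages, dendritic cells and B cells, had 5 of 11 genes lower and 1 higher. H2-Ab1, the beta chain of I-A, had 13.8, 19.2 and 25.1 CPM in CAST/EiJ against 37.6, 42.0 and 52.8 CPM in C57BL/6J, and fell by 1.25 ± 0.12. H2-Aa fell by 0.80 ± 0.14 and the protease Ctss, which trims the invariant chain, by 0.82 ± 0.14, while H2-DMb1 rose by 0.61 ± 0.15. Without CAST/EiJ male replicate 3, whose macrophage and lymphocyte transcripts were the highest, 8 members were lower and 1 was higher. Macrophage markers were 3 higher and 5 lower of 22 (1 and 3 with library totals alone). Adgre1, the F4/80 antigen, had 1.15, 1.76 and 2.08 CPM in CAST/EiJ against 4.30, 5.29 and 9.16 CPM in C57BL/6J, Ms4a7 had at most 0.105 CPM in CAST/EiJ against 1.91 to 3.53 CPM, and the dendritic cell integrin Itgax fell by 1.54 ± 0.14. C1qa, a complement subunit made by tissue macrophages, rose by 0.64 ± 0.13, and Fcer1g by 0.50 ± 0.17. The summed macrophage markers came to 121 to 475 CPM in CAST/EiJ and 115 to 176 CPM in C57BL/6J, ranges that overlap, and Ptprc, the pan-leukocyte CD45, was not called (log2 fold change 0.20, adjusted p = 0.728), but without CAST/EiJ male replicate 3, its highest library at 25.04 CPM, it was lower by a log2 fold change of -0.48 (adjusted p = 0.00237). Lymphocyte and plasma cell genes counted 1 higher, the antibody joining chain Jchain (adjusted p = 0.0421, and 0.00589 to 0.155 as each library was left out), and 0 lower of 14 tested, but 0 higher and 3 lower without CAST/EiJ male replicate 3, and 3 higher without C57BL/6J female replicate 3.

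The lowest Naip values were also in CAST/EiJ. Naip2, a sensor of bacterial secretion systems in the inflammasome (chr13:100144063-100202092), had 0.305, 0.434 and 2.14 CPM in CAST/EiJ against 40.3, 45.9 and 55.4 CPM in C57BL/6J. The 4 Naip genes summed to 1.33 ± 1.16 CPM in CAST/EiJ and 48.6 ± 4.71 CPM in C57BL/6J. Complement genes split into 7 higher and 6 lower of 20. Library totals alone gave 4 and 4, and the fit without both female replicates 4 gave 7 and 3. C2, of the classical pathway, and C4a rose by 1.76 ± 0.12 and 1.68 ± 0.24. Cfi, the protease that inactivates C3b, fell by 2.61 ± 0.23, with Masp1 and C3ar1 lower by 1.90 and 0.92 on the log2 scale. Among targets of NF-kB and cytokines, 8 of 20 were higher (40%, against 22.3% of all genes) and 2 lower. With the filter raised to a mean of 1 CPM, 4 of 11 were higher and 2 lower, where 3721 of 13900 genes were higher. The neutrophil chemokine Cxcl1 rose by 2.46 ± 0.31 at low levels, 1.79 ± 0.666 CPM in CAST/EiJ against 0.316 ± 0.128 CPM in C57BL/6J, and the adhesion molecules Vcam1 and Icam1 rose by 1.41 ± 0.42 and 1.09 ± 0.29. Il1b and Birc3 fell by 0.80 ± 0.24 and 0.43 ± 0.11. Without CAST/EiJ male replicate 3 the count was 7 higher and 4 lower.

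Cell cycle genes were more often higher in CAST/EiJ: 22 of 38 rose (57.9%, against 22.3% of all genes) and 4 fell, with a median log2 fold change of 0.56 and 13 members without overlap. Scaling by library totals alone left 17 higher and 2 lower. Cdk6, a kinase of the G1 phase, had 10.9, 13.8 and 16.4 CPM in CAST/EiJ against 2.25, 3.02 and 6.09 CPM in C57BL/6J and rose by 1.96 ± 0.18. The mitotic genes Plk1 and Ccnb2 rose by 1.47 ± 0.28 and 1.44 ± 0.22 at levels of 1.71 ± 0.324 and 1.40 ± 0.506 CPM in CAST/EiJ, against 0.605 ± 0.304 and 0.5002 ± 0.112 CPM in C57BL/6J. In the opposite direction, Ccnd1, the cyclin D1 partner of Cdk6, had 56.5, 63.7 and 89.6 CPM in CAST/EiJ against 84.9, 143 and 182 CPM in C57BL/6J and fell by 1.06 ± 0.14. Cdkn2b, an inhibitor of Cdk4 and Cdk6, fell by 0.67 ± 0.15 and Mcm6, of the replicative helicase, by 0.42 ± 0.11. Immediate early genes rise within minutes of stimulation or of handling. Of 18 tested, 6 were higher and 1 lower (1 and 1 with library totals alone). That count rested on single libraries and ran from 1 to 12 higher as each library was left out: Fosb, Npas4 and Fos had log2 fold changes of 1.57 ± 0.55, 1.52 ± 0.55 and 1.11 ± 0.43 with overlapping ranges and adjusted p of up to 0.0604, 0.0854 and 0.0936 without a library, and Nr4a2 fell by 1.43 ± 0.20 without overlap.

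Among the stromal lists, that of fibroblast and matrix genes had the most members higher in CAST/EiJ: of 24 genes, 13 rose (54.2%, against 22.3% of all genes) and 1 fell, with a median log2 fold change of 0.47. Thy1, a surface glycoprotein of fibroblasts, neurons and T cells, had 22.3, 27.4 and 38.1 CPM in CAST/EiJ against 3.99, 6.57 and 11.2 CPM in C57BL/6J and rose by 1.93 ± 0.19. Dpt, Col14a1 and Col1a1, all of the collagen matrix, rose by 1.18 ± 0.21, 1.07 ± 0.20 and 0.88 ± 0.24 with overlapping ranges, and Mgp, matrix Gla protein, fell by 0.73 ± 0.14. The summed markers ran from 1170 to 1680 CPM in CAST/EiJ and from 681 to 1514 CPM in C57BL/6J. Within females, 4 members were higher and 3 lower, and within males 16 were higher and 1 lower; no gene passed the test of the difference between the sexes. Endothelial genes counted 4 higher and 1 lower of 17 (Esam, Plvap and Tie1 up by 0.42, 0.37 and 0.37, Emcn down by 0.41 on the log2 scale), with Pecam1 at 68.6 ± 10.6 CPM in CAST/EiJ and 68.1 ± 13 CPM in C57BL/6J. Scaling by library totals alone called none of the 17. Among 14 pericyte and smooth muscle genes 1 was higher, Notch3 with a rise of 0.38 ± 0.10, and 1 lower, Rgs5 with a fall of 1.24 ± 0.10; 3 were higher without C57BL/6J female replicate 1, C57BL/6J male replicate 2 or CAST/EiJ female replicate 1. Schwann cell genes counted 4 higher and 3 lower of 10, with S100b up by 1.27 ± 0.25; the higher count was 2 without C57BL/6J female replicate 2, male replicate 3 or male replicate 4, and without CAST/EiJ female replicate 2 or male replicate 3. Red blood cell genes had 1 of 7 higher (4 without C57BL/6J female replicate 3), and Pparg, at 1.99 ± 0.396 CPM in CAST/EiJ against 7.21 ± 1.48 CPM in C57BL/6J, was the only adipocyte marker called of the 2 tested.

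Exocrine genes were dominated by the differences between libraries. Of 33 acinar genes, 4 were higher and none lower in CAST/EiJ, while the list's median log2 fold change was -0.51. Prss2 and Cpa1, both digestive enzymes, spanned 20.2 to 24801 and 29.0 to 42830 CPM across CAST/EiJ libraries, against 960 to 15674 and 1504 to 26043 CPM in C57BL/6J, and neither was called (adjusted p = 0.536 and 0.529). Without CAST/EiJ female replicate 4, Cpa1 had a log2 fold change of -2.26 (adjusted p = 0.0466). In that fit 4 genes of the list were higher and 6 lower. With a score of acinar transcripts as a covariate, 5 were higher and 25 lower. That score was the mean of the same list's genes, so this count cannot show a strain difference of the list. Reg family genes, secreted lectins that rise in injured pancreas, were lower in 2 of 6 cases, Reg3b with 0, 1.51 and 11.8 CPM in CAST/EiJ against 2.70, 44.8 and 196 CPM in C57BL/6J among them, and in 4 of 6 without CAST/EiJ female replicate 4. Duct cell genes counted 7 lower and 1 higher of 18. Cldn4, a tight junction claudin, had 13.2, 17.4 and 25.8 CPM in CAST/EiJ against 50.3, 57.8 and 70.3 CPM in C57BL/6J and fell by 1.75 ± 0.13, Tspan8 fell by 1.69 ± 0.19 and Krt7 by 0.74 ± 0.09, none with overlap. Spp1, osteopontin, rose by 1.85 ± 0.30, and Krt19 was not called (adjusted p = 0.0902, and 0.0317 to 0.237 as each library was left out).

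For several of the largest differences the count moved between near-identical copies, and the sum of the copies was then close in both strains. Rpl17, a ribosomal protein of the large subunit, had 191, 212 and 306 CPM in CAST/EiJ against 5.97, 7.12 and 8.50 CPM in C57BL/6J. Its processed copy Rpl17-ps8 did the opposite, and both together came to 229 ± 40.3 CPM in CAST/EiJ and 221 ± 31.5 CPM in C57BL/6J. The same held for Rpl19 with Rpl19-ps11 (329 ± 42.1 and 301 ± 25.8 CPM), Rpl9 with Rpl9-ps6 (275 ± 48.2 and 242 ± 25.6 CPM) and Rps12 with Rps12-ps3 (141 ± 41.5 and 128 ± 15.5 CPM), each in CAST/EiJ and C57BL/6J. Retrocopies gave the mirror image. Eno1b averaged 37.4 ± 1.604 CPM in CAST/EiJ and 0.0628 ± 0.0690 CPM in C57BL/6J, while Eno1, the glycolytic enolase, averaged 92.4 ± 5.18 and 127 ± 10.9 CPM, and the sums were 130 ± 6.51 and 127 ± 10.9 CPM. Sums also stayed within 1 SD (that of the more variable strain) of each other for Tpm3 with Tpm3-rs7 and Amd1 with Amd2, although the second copy of each had at least 14.7 CPM in CAST/EiJ and at most 0.386 CPM in C57BL/6J. Pgk1 with Pgk1-rs7 was an exception in part, at 119 ± 12.7 CPM in CAST/EiJ and 87.2 ± 10.9 CPM in C57BL/6J.

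In the digestive enzyme families, single copies differed on a larger scale. Their sums varied between libraries with an SD above the mean in each strain, so they cannot show whether counts moved between copies. Amy2b had a median of 7696 CPM in CAST/EiJ and 18.3 CPM in C57BL/6J, whereas Amy2a3 and Amy2a4 had 1.59 and 2.73 CPM in CAST/EiJ and 16945 and 5909 CPM in C57BL/6J. All 6 pancreatic amylase genes summed to 332 to 410175 CPM in CAST/EiJ and 13430 to 257614 CPM in C57BL/6J, so no difference was detectable in the sum. Cela3a and Prss1 were likewise higher in CAST/EiJ (medians of 211 and 106 CPM, against 0.0768 and 0.113 CPM), while the elastase 3 pair and the trypsinogens overlapped between the strains as sums. Ctrc, chymotrypsin C, had 595 CPM in CAST/EiJ and 10.2 CPM in C57BL/6J as medians, with 735 CPM in NZO/HlLtJ. Tmem254b, 1 of 3 copies in tandem, had at most 0.0425 CPM in CAST/EiJ against 9.41 to 15.3 CPM in C57BL/6J, and here the 3 copies together also differed, 8.02 ± 1.16 against 25.3 ± 3.95 CPM. Over all genes, 29.3% of 614 tested pseudogenes were called with at least a 4-fold difference, against 5.58% of 15455 protein-coding genes and 15% of 2755 other non-coding genes.

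**Figure D5:**
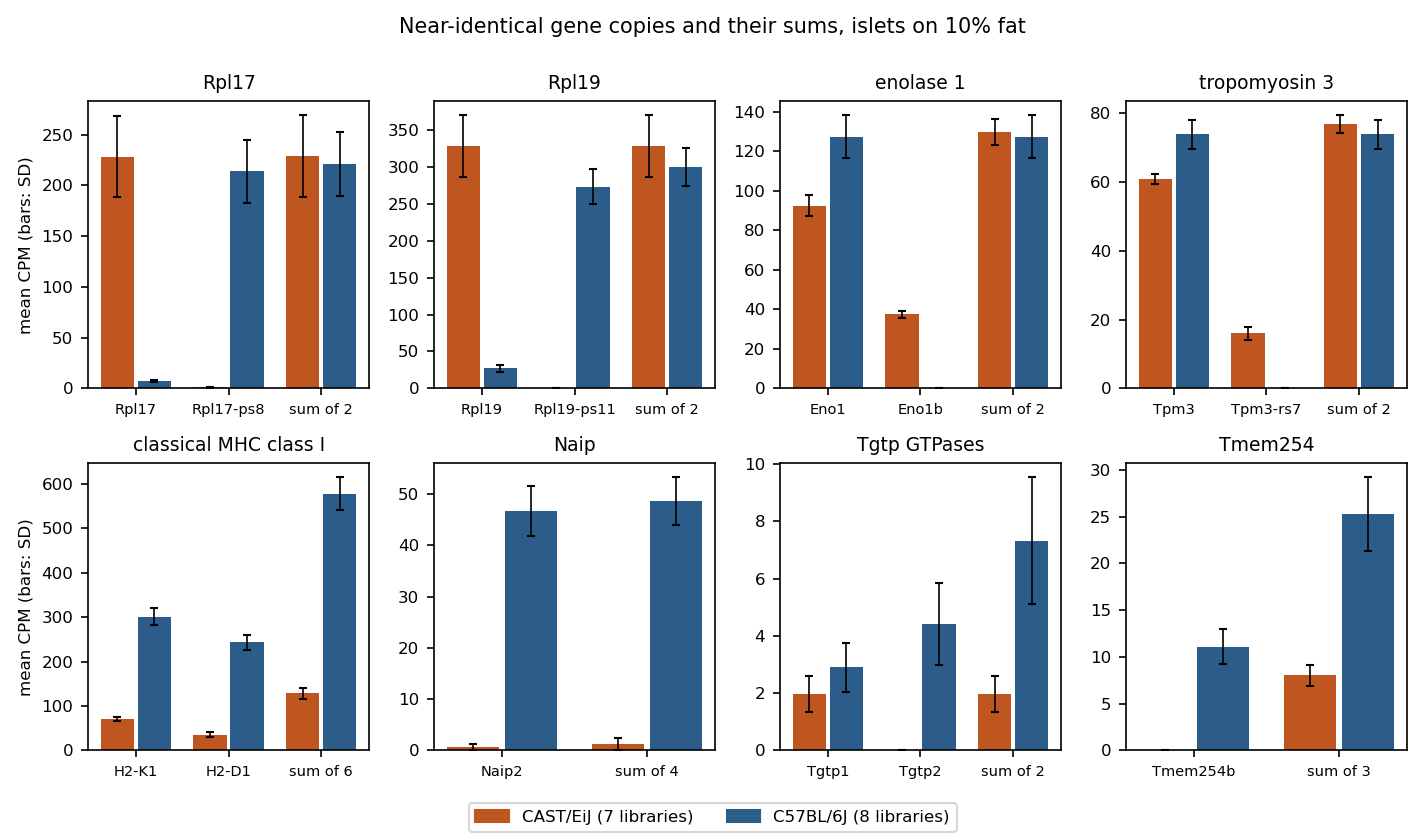
Mean CPM with SD of single copies and of their sum, CAST/EiJ left and C57BL/6J right in each pair of bars, for 4 pairs of near-identical copies (upper row) and for 4 groups whose sums differed (lower row). In the upper row the copies differ between strains and the sums are close; in the lower row the sums are lower in CAST/EiJ.

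Mitochondrial transcripts were close between the strains apart from single genes. The mitochondrially encoded genes took 1.21 to 2.95% of counts in CAST/EiJ and 1.72 to 3.24% in C57BL/6J, and 2 of 15 were higher and 2 lower. Without C57BL/6J female replicates 1 or 4, C57BL/6J male replicate 1 or CAST/EiJ female replicate 4, 4 were higher. The exception was mt-Co2, subunit 2 of cytochrome c oxidase, with 2.68, 4.59 and 7.996 CPM in CAST/EiJ against 802, 1027 and 1401 CPM in C57BL/6J (log2 fold change -7.83 ± 0.26) and a median of 1040 CPM in NZO/HlLtJ. The subunit mt-Co1 had 7218 ± 506 CPM in CAST/EiJ and 7520 ± 1096 CPM in C57BL/6J (adjusted p = 0.583), and where the CAST/EiJ reads of mt-Co2 were counted was not tested. mt-Nd2 and mt-Atp6 rose by 0.74 ± 0.11 and 0.53 ± 0.12, and mt-Nd3 fell by 1.12 ± 0.11. Of 35 nuclear genes of oxidative phosphorylation, 10 were higher and 3 lower, or 3 and 2 with library totals alone, and 16 were higher without CAST/EiJ female replicate 2. Cox6a2, a cytochrome oxidase subunit best known from muscle, had 25.4, 36.2 and 48.0 CPM in CAST/EiJ against 7.49, 9.07 and 12.6 CPM in C57BL/6J and rose by 1.89 ± 0.13, cytochrome c (Cycs) rose by 0.69 ± 0.10 and Uqcrc1 by 0.51 ± 0.08, while Cox7a2l, of respiratory supercomplexes, fell by 0.73 ± 0.08.

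Nnt itself rose by 1.63 ± 0.08 in CAST/EiJ (adjusted p = 2.47e-11), and NZO/HlLtJ had a median of 84.8 CPM. The antioxidant and glutathione list as a whole counted 12 higher and 11 lower of 35, with a median of 0.00 (5 and 8 with library totals alone). Nqo1, a quinone reductase driven by NRF2, had 13.5, 16.2 and 23.4 CPM in CAST/EiJ against 2.80, 5.61 and 6.38 CPM in C57BL/6J and rose by 1.69 ± 0.16. Gstm5 fell by 1.04 ± 0.11, and the near-identical Gstp1 and Gstp2 together came to 33.6 ± 8.19 CPM in CAST/EiJ and 56.6 ± 19.3 CPM in C57BL/6J.

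Glycolysis counted 8 higher and 3 lower of 19, with a median log2 fold change of 0.20, but 2 higher and 1 lower with library totals alone. Eno2, the neuronal enolase, had 110, 140 and 148 CPM in CAST/EiJ against 35.99, 45.2 and 48.1 CPM in C57BL/6J and rose by 1.61 ± 0.07. Aldoc rose by 1.25 ± 0.10 and Pgam1 by 0.38 ± 0.07, all without overlap; the falls of Eno1 and Pgk1, 0.49 ± 0.06 and 0.39 ± 0.09, were those of genes with copies described above. Pklr, the liver-type pyruvate kinase and a target of ChREBP, had 27.7 ± 4.84 CPM in CAST/EiJ and 13.1 ± 1.40 CPM in C57BL/6J. Txnip and Arrdc4, also targets of ChREBP, fell by 0.64 ± 0.13 and 0.61 ± 0.13, and the ChREBP axis counted 2 higher and 3 lower of 10. Fatty acid synthesis and desaturation had 7 of 21 genes higher and 2 lower. The desaturases Scd2 and Fads2 rose by 1.30 ± 0.11 and 1.24 ± 0.12 and the elongase Elovl6 by 0.91 ± 0.08, without overlap. Scd2 had 373, 485 and 726 CPM in CAST/EiJ against 186, 203 and 240 CPM in C57BL/6J. Elovl7 fell by 2.08 ± 0.15 and Acss2, the cytosolic acetyl-CoA synthetase, by 0.48 ± 0.08. Cholesterol synthesis had 4 of 24 higher and 9 lower (2 and 5 with library totals alone), with Pmvk and Msmo1 down by 1.32 ± 0.12 and 0.82 ± 0.09. Fatty acid oxidation counted 4 higher and 6 lower of 28 (2 and 4 with library totals alone): Fabp3 rose by 1.95 ± 0.13, and Ehhadh and Ppargc1a fell by 1.26 ± 0.24 and 0.87 ± 0.18.

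Genes of xenobiotic and steroid metabolism were called in 20 of 30 cases (66.7%, against 46.7% of all genes), 12 higher and 8 lower. Aldh1a3, a retinaldehyde dehydrogenase that marks dedifferentiated beta cells in diabetic mice, had 7.10, 15.1 and 26.2 CPM in CAST/EiJ against 1.602, 2.14 and 5.33 CPM in C57BL/6J, a rise of 2.42 ± 0.23, and 24.4 to 182 CPM in NZO/HlLtJ. Aldh1a1, of the same family, rose by 2.20 ± 0.41, with CAST/EiJ female replicate 4 at 84.4 CPM against 13.1 to 21 CPM in the other CAST/EiJ libraries and a rise of 1.76 without it. Ugt1a6a and Aox1 fell by 2.92 ± 0.14 and 2.61 ± 0.11. Their medians were 1.28 and 2.77 CPM in CAST/EiJ against 9.95 and 16.9 CPM in C57BL/6J, and the NZO/HlLtJ medians of 0.967 and 4.63 CPM lay nearer to CAST/EiJ.

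Of 32 genes of the unfolded protein response, 9 were lower (28.1%, near the 24.4% of all genes) and 2 higher. Trib3 and Chac1, both induced by ATF4, had 2.71, 3.57 and 5.86 CPM and 4.89, 12.1 and 29.8 CPM in CAST/EiJ, against 6.29, 8.69 and 22.9 CPM and 24.3, 38.3 and 56.1 CPM in C57BL/6J. Ern1, the IRE1 sensor, fell by 0.78 ± 0.08 without overlap, and Derl3, of the degradation pathway for misfolded proteins, rose by 0.92 ± 0.27. The remaining lists stayed near the background or below it. Cytosolic ribosomal proteins counted 12 higher and 6 lower of 55 (6 and 4 with library totals alone, 12 and 10 without CAST/EiJ female replicate 4), of which the 3 with the largest rise, Rpl17, Rpl9 and Rpl19, belong to the copy pairs above; Rps15 fell by 1.36 ± 0.10. Insulin and IGF signalling counted 5 higher and 6 lower of 24 (3 and 3 with library totals alone), with Irs1 and Akt1 up by 0.79 ± 0.10 and 0.53 ± 0.08 and Insr, the insulin receptor, down by 0.70 ± 0.07. The serotonin and prolactin receptor list counted 4 higher and 3 lower of 13 (2 and 2 with library totals alone), among them Htr1d, a serotonin receptor, at 1.73 ± 0.311 CPM in CAST/EiJ against 0.0714 ± 0.0298 CPM in C57BL/6J. The diabetes risk and HNF network counted 5 higher and 9 lower of 26 (3 and 6 with library totals alone), led by Tcf19 with a rise of 1.45 ± 0.15 and Igf2bp2 with a fall of 1.36 ± 0.15. The circadian clock had 0 higher and 4 lower of 19, including Cry2, down by 1.06 ± 0.20; 2 were lower with library totals alone or without both female replicates 4, and 2 were higher without C57BL/6J male replicate 1. Hypoxia genes counted 2 higher and 5 lower of 16, a count that fell to 3 lower in 9 of the 15 fits without a library and to 0 higher and 3 lower with library totals alone, and zinc and metallothionein genes 0 higher and 2 lower of 13, among them Slc39a8, a zinc transporter, with a fall of 1.61 ± 0.38.

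Imprinted genes, which are expressed from 1 parental copy, counted 9 higher and 5 lower of 26 (53.8%, near the 46.7% of all genes). Nnat, neuronatin, which aids signal peptide cleavage of preproinsulin, had 104, 153 and 193 CPM in CAST/EiJ against 11.1, 19.4 and 37.7 CPM in C57BL/6J, a rise of 2.84 ± 0.26 (adjusted p = 5.2e-07). Dlk1, a Notch ligand homologue of endocrine cells, had 9.09, 13.8 and 26.1 CPM in CAST/EiJ against 1.23, 2.84 and 4.005 CPM in C57BL/6J. NZO/HlLtJ was below both strains, with medians of 7.33 CPM for Nnat and 0.630 CPM for Dlk1. Zim1 fell by 1.10 ± 0.17. Magel2, Nnat, Dlk1 and Zim1 did not overlap between CAST/EiJ and C57BL/6J.

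The strain difference was also read within each sex. Within females 3075 genes were higher in CAST/EiJ and 3435 lower (34.4% called), and within males 2851 were higher and 3198 lower (32%), from 1 model of the 4 groups. No gene passed the test of the strain-by-sex interaction with edgeR; at an unadjusted p under 0.05 there were 1135 genes, the smallest adjusted p was 0.101, and DESeq2 called 33. The self-test at this design recovered 35.4% of simulated 2-fold and 82% of 8-fold interactions, so a small interaction would often be missed.

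The 16 libraries of the same strains on 44% fat share no library with the comparison above and gave a like picture for most genes. They were fitted together with the 15 libraries above, which shared in the gene filter and the estimate of spread. On 44% fat 4873 genes were higher in CAST/EiJ and 5290 lower (24.6% and 26.8%, together 51.4%). The same fit of 31 libraries called 4882 higher and 4877 lower of 19772 genes on 10% fat. The overlap below takes the calls on 10% fat from the fit of 15 libraries. Of the genes called on 10% fat, 7748 were called in the same direction on 44% fat and 0 in the opposite direction, which is 87.8% of the calls on 10% fat and 78.4% of those on 44% fat among the genes tested on both. The log2 fold changes of the 18906 genes correlated at r = 0.948 across genes, a description only, since genes are not replicates and both diets were counted alike. CAST/EiJ female replicates 1, 2 and 4 on 44% fat stood apart in 6 genes that were at or near 0 in CAST/EiJ on 10% fat. Their medians over these genes were 9.57, 3.67 and 5.07% of the C57BL/6J level, against 0 to 0.459% in the other 5 CAST/EiJ libraries on 44% fat. Without these libraries 6755 genes were shared in direction, 76.5% of the calls on 10% fat and 82% of those on 44% fat. No gene passed the strain-by-diet interaction in edgeR with all libraries (774 at an unadjusted p under 0.05) or without those 3, and DESeq2 called 9. On 44% fat the interferon list had 42 members lower and 4 higher, MHC class I 19 lower and 1 higher, the cell cycle 13 higher and 5 lower, and the immediate early genes 0 higher and 1 lower. The fit without the 3 libraries kept only replicate 3 of the CAST/EiJ females on 44% fat, which limits its counts above. For the lists, its median log2 fold changes are therefore given, against -0.05 over all genes. They were -1.29 for the interferon list, -0.904 for MHC class I, 0.227 for the cell cycle and -0.162 for the immediate early genes. With all libraries on 44% fat the medians were -1.23, -0.867, 0.205 and -0.174. The cell cycle median was thus smaller than the 0.56 on 10% fat, a difference that was not tested.

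By chromosome, the share of tested genes called ran from 42.6% on the X to 55.1% on chromosome 18 among the autosomes and the X. Genes with at least a 4-fold difference made up 11.3% of those tested on chromosome 14, the highest share of any autosome, with 55 lower and 16 higher in CAST/EiJ, and 4.93% on chromosome 15, the lowest.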

How the data were processed

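The deposited expected counts (estimated counts per gene) of 45 libraries were used; 23.6% of the values were not whole, and they were rounded. Per the labels' protocols, polyA RNA of islets was made into libraries with the KAPA mRNA HyperPrep kit and sequenced as 150 bp read pairs, with a target of 100 M pairs. The submitters' processing notes name GRCm38 and DESeq2; the sources used here give no aligner, counter, strandedness or handling of strain variants. A second deposited table of transformed values and the spike-in were not used here. Gene coordinates are those of GRCm38.

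Genes passing filterByExpr were tested with edgeR 4.0.16 (R 4.3.3) by its quasi-likelihood F test with TMM factors, a sex term and a strain term over the 15 libraries, and Benjamini-Hochberg adjustment over the 18906 genes tested; every adjusted p in the text is from edgeR unless DESeq2 is named. Each log2 fold change is CAST/EiJ over C57BL/6J, with its standard error taken as its size over the square root of F. CPM used TMM factors over all 45 libraries. A model of 4 groups gave the contrast within each sex and the interaction, and a model of 8 groups over 31 libraries the 44% fat contrast. Where a gene was at 0 in all libraries of a strain, the fold is a bound against a floor of 3 counts per library, which covers counting error only. Gene lists are given by counts and medians, without a test. Named genes were the 12 largest differences and 8 smallest p in each direction without overlap and with a mean of at least 5 CPM, up to 3 called members per list and direction with at least 1 CPM, and defining cell markers; a few of these are not reported here, and others are stated as picked after their values were seen. The single members named beside a count, the gene copies and their sums were also chosen that way. The 44 lists, the members and the rules were chosen with earlier results of these data known. The test was tried on simulated data of this design, over 18550 genes, with 50 genes changed at each of 1.5, 2, 4 and 8-fold. It recovered 60% of 2-fold and 100% of 8-fold changes, with 7 false calls. The share of genes changed was far smaller than the share called in the data, so these rates need not hold for them. Alternatives were DESeq2 1.42.0, limma 3.58.1, other scaling, filters and covariates, and leaving out libraries.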

Additional observations from a re-analysis of the deposited data

Results flagged for a closer look

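Within each strain, 432 sets of 7 or 8 values (named genes and summed shares, as log2 CPM) were searched for a highest or lowest library set apart from the rest by Dixon's criterion. It was met 33 times (7.64%), where chance gives about 1 in 20. Most of these cases lay in libraries already named for their acinar or immune transcripts. There were 10 in C57BL/6J female replicate 4, 7 in CAST/EiJ female replicate 4 and 5 in CAST/EiJ male replicate 3.

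CAST/EiJ male replicate 3 held the highest values of immune genes: Ptprc at 25 CPM against 3.78 to 5.69 CPM in the other CAST/EiJ libraries, the macrophage markers at a sum of 475 CPM against 121 to 169 CPM, and the lymphocyte and plasma cell markers at 233 CPM against 9.05 to 36.8 CPM. The same library had Naip2 at 2.14 CPM against 0.305 to 0.59 CPM, and the lowest Nnt, 71.9 CPM against 94.6 to 111 CPM.

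CAST/EiJ female replicate 4, with 44.5% acinar transcripts, had the lowest insulin share of the strain, 4.1% of counts against 11.1 to 15.1%, and the lowest mitochondrially encoded share, 1.21% against 2.37 to 2.95%. It was the lowest for Eno2 (110 CPM against 132 to 148 CPM) and the highest for Aldh1a1 (84.4 CPM against 13.1 to 21 CPM), Slc39a8 (1.96 CPM against 0.67 to 0.957 CPM), Tpm3-rs7 (19.9 CPM against 14.7 to 16.2 CPM) and Lefty1 (0.147 CPM against 0.0106 to 0.0508 CPM).

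C57BL/6J female replicate 4, with the most acinar transcript of that strain, had the lowest insulin share, 4.97% against 8.35 to 11.4%, and the lowest endocrine transcripts: Ins1 at 23700 CPM, Ins2 at 46200 CPM, Iapp at 10700 CPM and Chga at 8410 CPM, against lowest values of 29900, 58800, 14200 and 11300 CPM in the other 7 libraries. Kcnip1 (37.2 CPM), Eno2 (36 CPM) and Pmvk (8.48 CPM) were lowest there too, and the digestive enzymes Cela3a (1.08 CPM) and Prss1 (1.34 CPM) highest.

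Single genes stood apart in other libraries. In CAST/EiJ, Sst was high in female replicate 3 at 3260 CPM, mt-Co1 and mt-Nd2 high in male replicate 1 at 8250 and 2100 CPM, and female replicate 1 had the only Iigp1 count, 0.0271 CPM, and the lowest fibroblast and matrix sum, 1170 CPM. In C57BL/6J, Ppargc1a was low in female replicate 1 at 2.21 CPM, Jchain high in female replicate 3 at 2.24 CPM, Amd1 low in male replicate 2 at 63.2 CPM, and Angptl7 and Nqo1 low in male replicate 4 at 1.68 and 2.80 CPM, which also had the only H2-Bl count of that strain, 0.0282 CPM. The part of these libraries in the strain differences was not tested beyond leaving each out.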

How the results depend on the processing

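Scaling by library totals alone left 2308 genes higher and 2947 lower, and ended 26 of the calls among 213 named genes; the cause was not tested. Under the other alternatives the counts stayed within 1.5 times, including 3959 to 4554 higher and 4072 to 4598 lower as each library was left out. DESeq2 called 27 and 6 genes (higher and lower in CAST/EiJ) in the strain-by-sex interaction, and 8 and 1 in the strain-by-diet interaction, where edgeR called 0 in each. Of the 213 named genes, 181 kept their direction and their side of the threshold in all 27 alternatives. The one that changed direction as a call was Ptprc, with a log2 fold change of 0.20 over all libraries, -0.483 without CAST/EiJ male replicate 3 and 0.333 without CAST/EiJ male replicate 2, the ends of its range. No paired analysis was possible because the replicate numbers follow accession order and pair no samples. With the code series of the sample names as a factor, 4309 genes were higher and 4772 lower. The fit without both female replicates 4, the 44% fat comparison without its 3 libraries, and DESeq2 on the interactions were chosen after seeing the data. Counts of genes with sequence differences between the strains depend on a mapping step that was not analysed here, and the few libraries per sex limit what the interaction test can detect.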
